A study of Mus musculus with 12 samples.

Results

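Confluent monolayers of mouse colonic epithelial cells at day 5 were compared with colonic crypts across all genes counted, to ask how far the cultured sheet still lay from tissue. The comparison takes the 3 libraries labelled as day 5 monolayers and the 3 labelled as crypts, which are 6 of the 12 libraries of the series. The labels give the colon of a wild-type (WT) mouse as the source of both groups, an age of 6 to 10 weeks, and no treatment, transgene or sorting. Crypt cells were first grown on collagen and then replated on scaffolds with a gradient of cross-linking, where a continuous sheet formed within 3 to 5 days. Crypts, as the epithelial units taken from the colon, served as the reference and had no time in culture given. The titles give 407 ± 53 ohm cm2 for the day 5 monolayers, in the unit of electrical resistance across a sheet, and do not name the type of error. Monolayers at day 3 and day 4, with 3 libraries each and otherwise grown alike, entered the same fit and are quoted only to place day 5. No label says whether the 3 libraries of a group are separate mice or cultures, so the spread behind each p-value is that among these libraries and may be technical.

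Colonic epithelium renews from stem cells at the crypt base. Their daughters divide in the lower crypt, stop dividing as they move up, and mature into absorptive colonocytes, which take up salt, water and butyrate, or into secretory cells. Goblet cells secrete the mucus layer, enteroendocrine cells release hormones and tuft cells sense luminal signals. After injury the same epithelium can flatten, turn on genes also used by fetal gut, and lay down basement membrane. A crypt holds dividing and mature cells together, so its RNA is a mixture of these states.

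Levels are in CPM, counts relative to the library total, scaled between libraries by TMM factors, and are listed in replicate order. Changes are log2 fold changes of day 5 against crypts ± SE, with a call where the adjusted p of edgeR's quasi-likelihood test was below 0.05. The SE was derived as the size of the change divided by the square root of that test's F statistic. The 95% intervals of changes were built on this SE with a t quantile. Gene totals were 5456913, 11716792 and 5760580 counts at day 5 and 4518314, 7130784 and 9939045 in crypts, and 12863 of 23420 genes were abundant enough to be tested. A fold against a group with no count is a lower bound against 3 counts pooled over that group, while a group with 1 to 3 counts has its ratio printed together with an exact 95% interval. Both cover counting error only. Genes named to account for a small count in a list, and Atp1b1, Krt18 and Prom1, were chosen after their values were seen. The others follow the naming rule given with the processing. Day 5 replicate 1 stood apart from replicates 2 and 3: across genes its log2 levels correlated with theirs at r of 0.946 and 0.949, against 0.981 between replicates 2 and 3, and it had the fewest genes with a count of the 12 libraries (12293). The epithelial genes Epcam, Cdh1 and Krt8 were abundant in all 6 libraries, while several defining markers of mature colonic cells were near 0 at day 5.

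Day 5 monolayers differed from crypts at most of the genes tested, by large factors at the extremes and small ones in the middle. Of 12863 genes, 7371 were called (57.3%), with 3658 higher (28.4%) and 3713 lower (28.9%), and 7933 had an unadjusted p under 0.05. A change past 2-fold, tested against that size with edgeR's glmTreat, was found for 2907 genes (22.6%), 1323 of them higher (10.3%) and 1584 lower (12.3%). All 3 day 5 libraries lay above or below all 3 crypts libraries at 59.1% of the genes. At the other end, 2189 genes (17.0%) had a 95% interval that lay wholly within 1.5-fold of crypts, and 3638 were neither called nor held within 1.5-fold. The median gene moved by 0.69 on the log2 scale in either direction, and 1 in 20 genes lay below -4.15. Scaling by library totals in place of TMM moved the median of all genes from -0.03 to -0.23 and the share of calls that were higher from 49.6% to 37.7%, so directions of small changes are relative to the scaling.

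**Figure D1:**
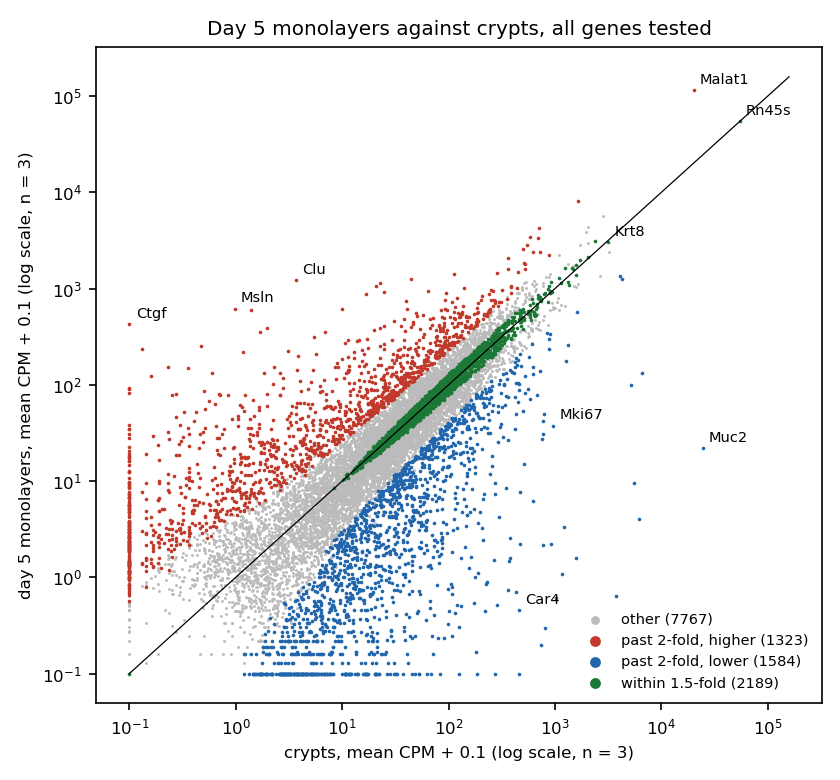
Mean level of each tested gene in crypts (horizontal) and in day 5 monolayers (vertical), both as CPM + 0.1 on log scales with n = 3 libraries each. Points are genes, coloured by whether the change was past 2-fold (1323 higher, 1584 lower), within 1.5-fold (2189) or neither, and the line marks equal levels. Muc2 and Car4 lie far below the line, Ctgf, Msln and Clu far above it, and Krt8 on it.

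Genes much lower in monolayers held a sizeable part of the gene counts of crypts. The 1379 genes called at least 4-fold lower held 15.4, 12.5 and 13.8% of gene counts in the 3 crypts libraries and 0.634, 0.654 and 0.68% at day 5. Among them Muc2 averaged 24543 CPM in crypts, Clca3 6149 and Mptx1 3766, so a few abundant genes weighed heavily in that share. The 974 genes called at least 4-fold higher held 3.9, 3.65 and 3.83% in crypts and 21.8, 21.1 and 19.9% at day 5. The nuclear RNA Malat1 alone held 2.21 ± 0.171% in crypts and 9.3 to 12.2% at day 5. Since these genes were chosen by that difference, the shares are a description. The genes within 1.5-fold of crypts held 33.3 ± 1.07% of crypts counts and 29.9 ± 0.616% at day 5 (SD, n = 3). Of the 100 genes with the most counts in crypts, 54 were called lower and 25 higher, and 51 were also among the 100 with the most counts at day 5.

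**Figure D2:**
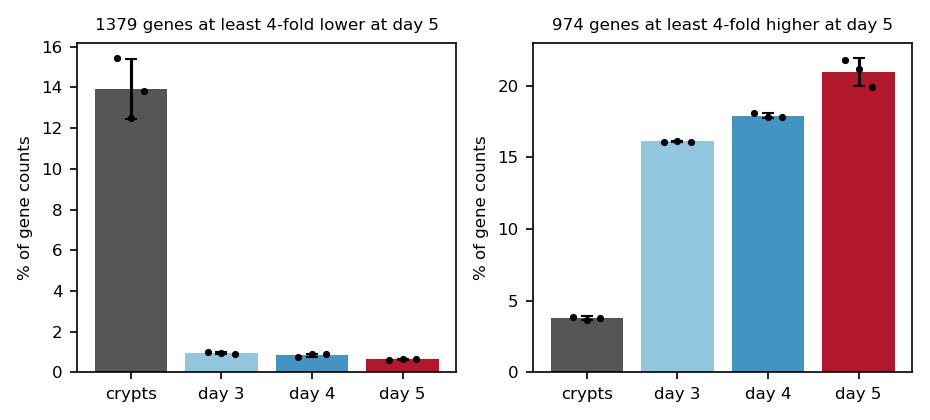
Share of all gene counts, in percent, held by the 1379 genes called at least 4-fold lower at day 5 (left) and the 974 called at least 4-fold higher (right). Bars are means of 3 libraries, error bars are SD and dots are libraries. The lower genes drop from 13.9% in crypts to 0.656% at day 5, with 0.959% already at day 3, and the higher genes stand at 3.79% in crypts and 21.0% at day 5.

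The count of changed genes was about the same on each day in culture, although genes also changed between those days. Against crypts 7245 genes were called at day 3 (56.3%, with 28.4% higher and 27.9% lower), 7339 at day 4 (57.1%, with 28.7% higher and 28.4% lower) and 7371 at day 5. The genes past 2-fold numbered 2836, 2818 and 2907 on those days. The 3 comparisons share the crypts libraries. Between day 5 and day 3, which share no library, 2620 genes were called (20.4%), with 1273 higher at day 5 (9.9%) and 1347 lower (10.5%), and without day 3 replicate 1 the higher genes numbered 840. In the comparison of day 5 against day 4, 972 genes were called (7.56%), 432 higher (3.36%) and 540 lower (4.2%), and without day 5 replicate 2, day 4 replicate 2 or day 4 replicate 3 the count was 585, 536 or 553. Among the genes called between day 5 and day 3, 75 lay on opposite sides of the crypts level at those days, and 31 had been at least 2-fold lower than crypts at day 3 and stood within 1.5-fold at day 5.

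**Figure D3:**
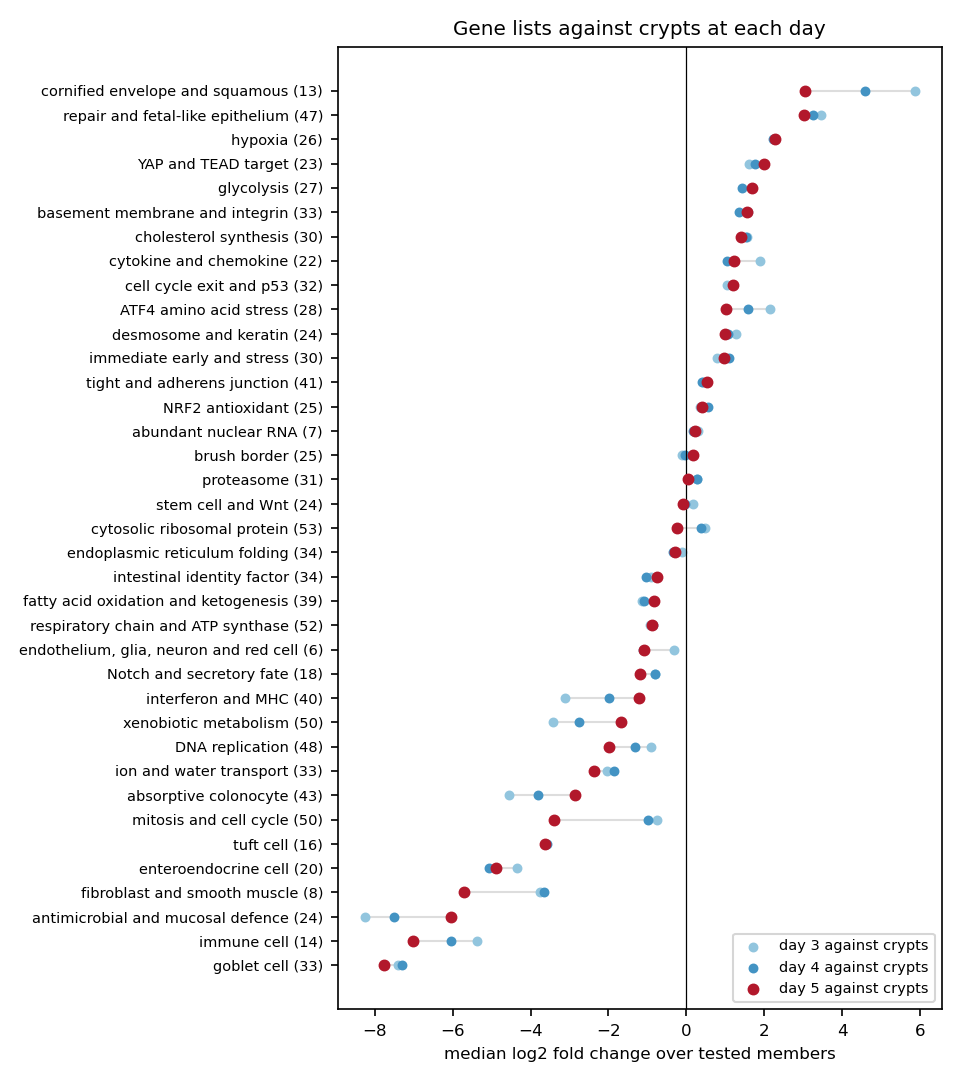
Median log2 fold change against crypts over the tested members of 37 gene lists (number of tested members in brackets) at day 3, day 4 and day 5, with zero marking the crypts level. The mitosis list moves from -0.76 at day 3 to -3.39 at day 5, the absorptive colonocyte list from -4.56 to -2.86, and goblet, enteroendocrine and tuft lists stay far below zero on all days.

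Genes of dividing cells were low in the day 5 monolayer. Of 50 tested mitosis and cell cycle genes 46 were lower than in crypts and 0 higher (28.9% of all genes tested were called lower), with a median of -3.39 against -0.03 over all genes. Of 48 DNA replication genes 41 were lower and 1 higher, with a median of -1.98. The 1 higher gene was Prim2, a primase subunit (1.28 ± 0.16). The mitosis genes summed to 3049, 3569 and 2744 CPM in crypts and to 327, 302 and 342 at day 5. They had stood at 1837 ± 229 at day 3 and 1480 ± 269 at day 4 (SD, n = 3). Between day 4 and day 5, 41 of the 50 were called lower (4.2% of all genes tested were called lower in that comparison).

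Many genes of this program share short promoter elements. In mitotic genes these are the cell cycle homology region and the CCAAT box, and in replication genes the E2F site. Repressor complexes hold such genes off in resting cells through the homology region and the E2F site. The 250 bases before the annotated start are shown to display these elements for 3 mitotic genes and 1 replication gene from RefSeq on GRCm38.p6, 5′ to 3′ on the strand of the gene. Capitals mark matches on either strand to TTTGAA or CCAAT in Cdc20, Kif11 and Top2a, and to TTCCCGC or CCAAT in Pola1.
Cdc20, chr4:118437344-118437593, minus strand: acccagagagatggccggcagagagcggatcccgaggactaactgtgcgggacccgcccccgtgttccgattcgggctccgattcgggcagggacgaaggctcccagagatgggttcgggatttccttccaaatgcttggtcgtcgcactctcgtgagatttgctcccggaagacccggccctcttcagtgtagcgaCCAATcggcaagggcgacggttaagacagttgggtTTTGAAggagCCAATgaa
Kif11, chr19:37376132-37376381, plus strand: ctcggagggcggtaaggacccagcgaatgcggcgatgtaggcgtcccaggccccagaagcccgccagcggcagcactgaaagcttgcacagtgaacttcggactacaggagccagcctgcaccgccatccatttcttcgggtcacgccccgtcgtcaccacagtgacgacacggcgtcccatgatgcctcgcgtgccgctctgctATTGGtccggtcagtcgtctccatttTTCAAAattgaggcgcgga
Top2a, chr11:99024190-99024439, minus strand: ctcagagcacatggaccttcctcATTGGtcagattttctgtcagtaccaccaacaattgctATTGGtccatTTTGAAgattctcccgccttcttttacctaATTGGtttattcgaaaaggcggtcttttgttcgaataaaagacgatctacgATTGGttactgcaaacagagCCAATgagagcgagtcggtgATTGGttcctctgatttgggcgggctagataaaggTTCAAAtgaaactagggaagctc
Pola1, chrX:93632156-93632405, minus strand: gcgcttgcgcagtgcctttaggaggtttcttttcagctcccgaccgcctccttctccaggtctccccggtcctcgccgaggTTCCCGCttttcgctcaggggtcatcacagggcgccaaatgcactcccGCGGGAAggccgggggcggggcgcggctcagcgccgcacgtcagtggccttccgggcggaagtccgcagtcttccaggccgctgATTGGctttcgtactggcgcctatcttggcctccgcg

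In Cdc20 the TTTGAA match starts 18 bases before the annotated start, in Kif11 19 bases before it and in Top2a 23 and 179 bases before it, and each has a CCAAT match further upstream of the match nearest to the start. The TTCCCGC matches of Pola1 lie 121 and 169 bases before its start. Over the lists, TTTGAA was present in the window of 14 of 42 mitosis genes with an entry and in 12.6% of the 9528 tested genes that have one. CCAAT was present in 30 of the 42 mitosis genes and 24 of 38 replication genes against 40.5%, and TTCCCGC in 11 of 38 replication genes against 8.14%. None of these motifs contains another. A match describes the sequence only.

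The 4 genes with printed promoters were lower, like most of their lists, by more than the list medians (-3.39 for mitosis, -1.98 for replication). Kif11 and Pola1 had been named for the size of their change. Cdc20, which activates the anaphase-promoting complex, was at 22.8, 23.9 and 23.7 CPM in crypts and 0, 0.628 and 1.21 at day 5 (-5.18 ± 0.41, edgeR adjusted p = 4.55e-09). Kif11, the kinesin that separates spindle poles, was at 94.3, 79.5 and 68.8 and 1.81, 1.26 and 0.867 CPM (-5.96 ± 0.42). Top2a, the topoisomerase of dividing cells, was at 254, 295 and 263 and 9.07, 10.2 and 9.01 CPM (-4.82 ± 0.15). Pola1, the catalytic subunit of the polymerase that primes replication, was at 32, 38.1 and 33.2 and 0, 0.807 and 2.77 CPM (-4.87 ± 0.67). No day 5 library reached a crypts library for any of the 4 (the groups did not overlap at 59.1% of all genes tested). At day 3 the 4 genes had means of 16.1, 27, 132 and 11.5 CPM.

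Mki67, the proliferation antigen, stood at 933, 1082 and 866 CPM in crypts and 40.7, 31.2 and 40.7 at day 5 (-4.69 ± 0.19, edgeR adjusted p = 3e-13), after 419 ± 80.8 at day 3. Ccnb1, the mitotic cyclin, was at 14.2, 25.4 and 11 CPM in crypts and 0.202, 0 and 0.867 at day 5, while its day 3 mean of 13.7 had not been called different from crypts. The spindle and checkpoint genes Bub1, Ttk, Kif14, Nusap1, Hmmr and Iqgap3 were lower by 4.98 to 7.1 on the log2 scale. The checkpoint gene Bub3 was the abundant member nearest to no change, at 23.6 ± 1.87 CPM in crypts and 22 ± 4.21 at day 5 (-0.12 ± 0.18, edgeR adjusted p = 0.597). Gins1, of the replicative helicase, had no count at day 5 in any library (at least 24.9-fold lower), and the helicase subunit Mcm5 was at 14.4, 31.1 and 29.8 CPM in crypts against 0, 0.359 and 2.95. The sliding clamp Pcna did not follow: it stood at 34.8, 39.3 and 39.5 CPM in crypts and 47.1 ± 2.94 at day 5 (0.31 ± 0.13, edgeR adjusted p = 0.0599), with all day 5 values above all crypts values.

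**Figure D4:**
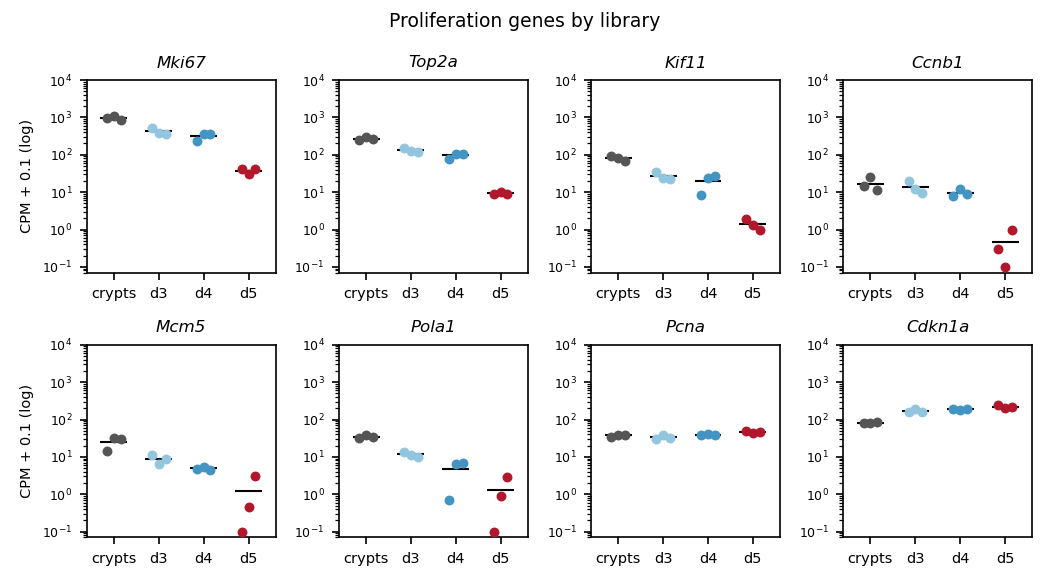
Levels of 8 cell cycle genes in the 12 libraries, as CPM + 0.1 on a log scale, by group (crypts, day 3, day 4, day 5), with dots for libraries and lines for group means. Mki67, Top2a, Kif11 and Ccnb1 drop between day 4 and day 5, Mcm5 and Pola1 fall from day 3 on, Pcna stays near its crypts level, and the day 5 values of Cdkn1a (200 to 240 CPM) lie above those of crypts (78.5 to 83.7 CPM).

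Genes of cell cycle arrest and p53 were higher for 24 of 32, with 4 lower (28.4% of all genes tested were called higher) and a median of 1.21. Cdkn1a, the p21 inhibitor, was at 78.5, 78.7 and 83.7 CPM in crypts and 239.7, 200.3 and 216 at day 5 (1.44 ± 0.10), and had been at 168 at day 3. Phlda3, a p53 target that restrains AKT, was at 24.4 ± 4.72 CPM against 0.191 ± 0.196 (6.77 ± 0.41). Cdkn2a, which encodes p16 and ARF, had 1.01, 3.86 and 3.47 CPM at day 5 and no count in crypts (at least 24.6-fold higher). The inhibitor gene Cdkn2c went the other way, at 2.92 ± 1.69 CPM in crypts and 0.173 ± 0.3 at day 5, as did its relative Cdkn2d (-1.11 ± 0.44, not called without crypts replicate 2 or day 5 replicate 1 or 2, -1.09 to -0.73), the p107 gene Rbl1 (-1.57 ± 0.22) and the death receptor Fas (-1.40 ± 0.37). Rbl2, the p130 pocket protein of resting cells, lay within 1.5-fold (0.02 ± 0.14). The median of the arrest list was 1.05 at day 3, so it was already raised while mitosis genes were still expressed.

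Stem cell and Wnt genes did not move as a block: 9 of 24 were higher and 9 lower, with a median of -0.08. Over all genes tested 28.4% were called higher and 28.9% lower. Lgr5, the receptor of crypt base stem cells, was at 6.41, 21.8 and 9.74 CPM in crypts and 3.02, 1.26 and 1.56 at day 5 (-2.77 ± 0.48, edgeR adjusted p = 8.35e-05), with the highest value in crypts replicate 2. Smoc2, another crypt base gene, was at 20.6, 27 and 18.9 and 0, 1.79 and 0.347 CPM (-4.63 ± 0.65), and Ascl2, the stem cell transcription factor, at 7.41, 2.87 and 6.41 and 0, 0.448 and 0 (-4.68 ± 0.90). Tnfrsf19 had no count at day 5 (at least 24.3-fold lower). Axin2, a feedback target of Wnt signalling, was higher instead, at 101, 142 and 129 CPM against 52.3, 68.1 and 73.7 (0.93 ± 0.15, edgeR adjusted p = 3.13e-05). The summed level of the list was higher at day 5, at 3909, 4009 and 4098 CPM against 2374, 2592 and 2758 in crypts. Prom1, which encodes the membrane protein prominin 1, held the most counts of any member at day 5, with 1912, 1781 and 1805 against 376, 599 and 554 CPM (1.84 ± 0.12). The list thus held genes far below crypts and abundant genes above it. The transporter gene Slc12a2 matched its crypts level (688 ± 34.4 against 682 ± 26.2 CPM, 0.01 ± 0.08).

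Secretory cell genes were low in day 5 monolayers, and of the 3 lists the goblet list had the largest drop in summed level. Goblet cell genes were lower for 32 of 33 and higher for 1, with a median of -7.75, or -6.95 with genes at 0 set to their bound, and they summed to 55514, 37243 and 42168 CPM in crypts against 810, 708 and 711. The 1 higher gene was the membrane protease Mmp15 (1.78 ± 0.10). Enteroendocrine genes were lower for 16 of 20 and higher for 2, with a median of -4.89 (-4.75 at the bounds). Tuft cell genes were lower for 13 of 16 and higher for 0, with a median of -3.62 (-3.33 at the bounds). In these bulk libraries fewer cells of a type and less RNA per cell cannot be told apart.

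Muc2, the mucin that forms the colonic mucus gel, was at 25958, 23156 and 24516 CPM in crypts and 54.4, 5.38 and 6.07 at day 5 (-10.28 ± 0.63, edgeR adjusted p = 1.2e-10). Day 5 replicate 1 held the highest of its values there. Clca3, the older symbol for the goblet cell mucus gene Clca1, was at 10865, 2922 and 4661 and 7.86, 0.986 and 2.95 CPM (-10.89 ± 0.60). Capn9, a goblet cell calpain gene, and Tpsg1 had no count in any day 5 library (at least 188-fold and 233-fold lower). The secretory fate regulators were low as well: Atoh1, required for all secretory lineages, had 1 count over the day 5 libraries and was lower by a ratio of 1552 (95% interval 278 to 61347), and Spdef, of goblet maturation, was at 0.7 ± 0.723 CPM against 107 ± 11.9 (-6.91 ± 0.37). Gfi1, which acts downstream of Atoh1, was lower by a ratio of 133 (95% interval 36.5 to 1105), and the Notch ligand gene Dll1 stood at 0.673 ± 0.618 against 20.4 ± 1.51 CPM (-4.81 ± 0.58). The receptor genes Notch2 (2.29 ± 0.15) and Notch3 (4.11 ± 0.51) moved the opposite way and were higher. So were the Jagged ligand genes Jag1 (0.87 ± 0.21) and Jag2 (3.53 ± 0.37) and the factor Sox4 (2.52 ± 0.14). In all, 5 of 18 Notch and secretory fate genes were higher and 10 lower, beside 28.4% and 28.9% of all genes tested. Hes1, the Notch target that represses Atoh1, lay within 1.5-fold of crypts (54.5 ± 9.74 against 46.4 ± 8.86 CPM, 0.22 ± 0.16, edgeR adjusted p = 0.235), though it was called higher without crypts replicate 2 (0.39). Xbp1, needed for secretory load, was the goblet list member nearest to crypts, and it was still called lower (-0.82 ± 0.12).

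Hormone and tuft cell genes were low with a few exceptions, and more of their summed level was left than of the goblet list. Enteroendocrine genes summed to 983 ± 455 CPM in crypts and 120.2 ± 16.1 at day 5, and tuft cell genes to 430.1 ± 22 and 121 ± 7.54 (SD, n = 3). Chga, the granule protein of endocrine cells, was at 77.9, 104 and 223 CPM in crypts and 4.03, 5.47 and 4.68 at day 5 (-4.80 ± 0.36, edgeR adjusted p = 2.13e-09). The somatostatin gene Sst and the prohormone convertase gene Pcsk1 had no count at day 5 (at least 57.5-fold and 92.2-fold lower), nor did the endocrine factor Insm1 (at least 30.7-fold). The 2 higher genes were Ddc, an enzyme of amine synthesis (60.3 ± 7.5 against 35.1 ± 1.38 CPM, 0.78 ± 0.13), and the carboxypeptidase Cpe (1.79 ± 0.29). Dclk1, the tuft cell kinase, was at 20.2, 11.1 and 18.6 CPM in crypts and 0, 0.448 and 0 at day 5 (-6.20 ± 0.87), and its 5 day 5 counts were all in replicate 2. Fyb and Alox5ap, which tuft cells share with blood cells, had no count at day 5. Sox9, listed with tuft cells but also a factor of crypt progenitors, was at 219, 251 and 181 and 59.9, 70.4 and 60.0 CPM (-1.77 ± 0.17). At day 5 Ddc and Sox9, with means of 60.3 and 63.4 CPM, made up much of the sums of their lists. Sox9 also held 217 CPM of the tuft cell sum in crypts.

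Absorptive colonocyte genes fell into a graded pattern. Of 43 tested genes 33 were lower and 6 higher, with a median of -2.86, and 26 of the 43 were higher at day 5 than at day 3 (9.9% of all genes tested were called higher in that comparison), while Aqp4 and Hsd17b13 were lower. Their summed level, 23624 ± 3810 CPM in crypts, had dropped to 7559 ± 61.4 by day 3 and stood at 8260 ± 646 on day 4 and 11187 ± 427 on day 5 (SD, n = 3). Ion and water transport genes were lower for 25 of 33 and higher for 3, with a median of -2.36. The higher ones were the sodium channel subunit Scnn1a (0.38 ± 0.09), the bicarbonate cotransporter Slc4a4 (0.27 ± 0.10, not called without crypts replicate 3 or day 5 replicate 1 or 2, 0.19 to 0.28) and the sodium pump regulator Fxyd4 (1.40 ± 0.39), and with library totals Scnn1a (0.17) and Slc4a4 (0.06) were not called. Slc4a4 was also not called with DESeq2 (0.23), RLE factors (0.23) or the 6 libraries alone (0.26). The division into 3 ranges that follows was made after the values were seen and is a description.

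One range of colonocyte genes had reached the crypts level by day 5. Ceacam20, a microvillus adhesion molecule, was at 132, 128 and 99 CPM in crypts and 116, 141 and 119 at day 5 (0.07 ± 0.15), from a day 3 mean of 24.4. Sult1b1, a sulfotransferase called lower only without day 5 replicate 1 (-0.31) and with library totals (-0.37), was at 289.8, 324 and 343 and 348, 269.9 and 243 CPM (-0.16 ± 0.13, day 3 mean 43.4), and Atp1b1, the sodium pump subunit called lower with library totals (-0.39), at 1321, 1264 and 1433 and 1144, 1321 and 1081 (-0.18 ± 0.10, day 3 mean 416). The values of the groups overlapped for each of these genes, and each was called higher at day 5 than at day 3. Car1, the cytosolic carbonic anhydrase of colon, was close, at 2059, 4348 and 3180.2 against 2484, 2292 and 2341 CPM (-0.43 ± 0.18, edgeR adjusted p = 0.0493). The call was lost without any 1 of the day 5 replicates and without crypts replicate 2 or 3, where the change ranged from -0.46 to -0.14, and by DESeq2 (-0.46). It was also lost in the 6 libraries alone (-0.43) and with the replicate block (-0.40). Car2, a second cytosolic carbonic anhydrase, lay above crypts at 1612, 1569.5 and 1581 against 546, 442 and 584 CPM (1.60 ± 0.09).

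A second range was still lower than crypts but had climbed from day 3. Krt20, the keratin of surface colonocytes, was at 894, 1563 and 1351 CPM in crypts, 41.3 ± 6.2 at day 3 and 196, 164 and 164 at day 5 (-2.86 ± 0.20, edgeR adjusted p = 7.98e-10). Slc26a3, the chloride and bicarbonate exchanger, was at 448, 390.2 and 464, 16.5 ± 4.03 and 48.2, 54.2 and 46.5 CPM in the same order (-3.12 ± 0.18). Slc9a3, the apical sodium and proton exchanger, was at 99.5, 166 and 153, 0.647 ± 0.233 and 16.9, 12.3 and 14 CPM (-3.30 ± 0.22). All 3 were called higher at day 5 than at day 4. The cross-linking enzyme gene Tgm3 (-4.78 ± 0.22), the acute phase gene Saa1 (-2.47 ± 0.24) and the sugar phosphate exchanger gene Slc37a2 (-3.97 ± 0.33) followed the same course, Saa1 from 0.199 CPM at day 3 to 32.1 at day 5.

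The remaining range was near absent at day 5. Guca2a, the guanylin precursor, was at 1253, 1050.1 and 1355 CPM in crypts and 5.24, 3.14 and 1.39 at day 5 (-8.58 ± 0.26). Aqp8, the water channel of surface cells, was at 251, 223 and 195 and 0.605, 0.269 and 1.39 CPM (-8.39 ± 0.28), and Car4, the apical membrane carbonic anhydrase, at 459, 413 and 502 and 0.806, 0.0897 and 0.173 (-10.63 ± 0.26), on 6 counts. Pck1, of gluconeogenesis, was lower by a ratio of 3883 (95% interval 697 to 153420.0). Aqp1, Scnn1b and Best2, a water channel, a sodium channel subunit and an anion channel gene, had no count at day 5 (at least 295-fold, 54.1-fold and 114-fold lower). Genes of the same mature cell type thus lay at very different distances from crypts.

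**Figure D5:**
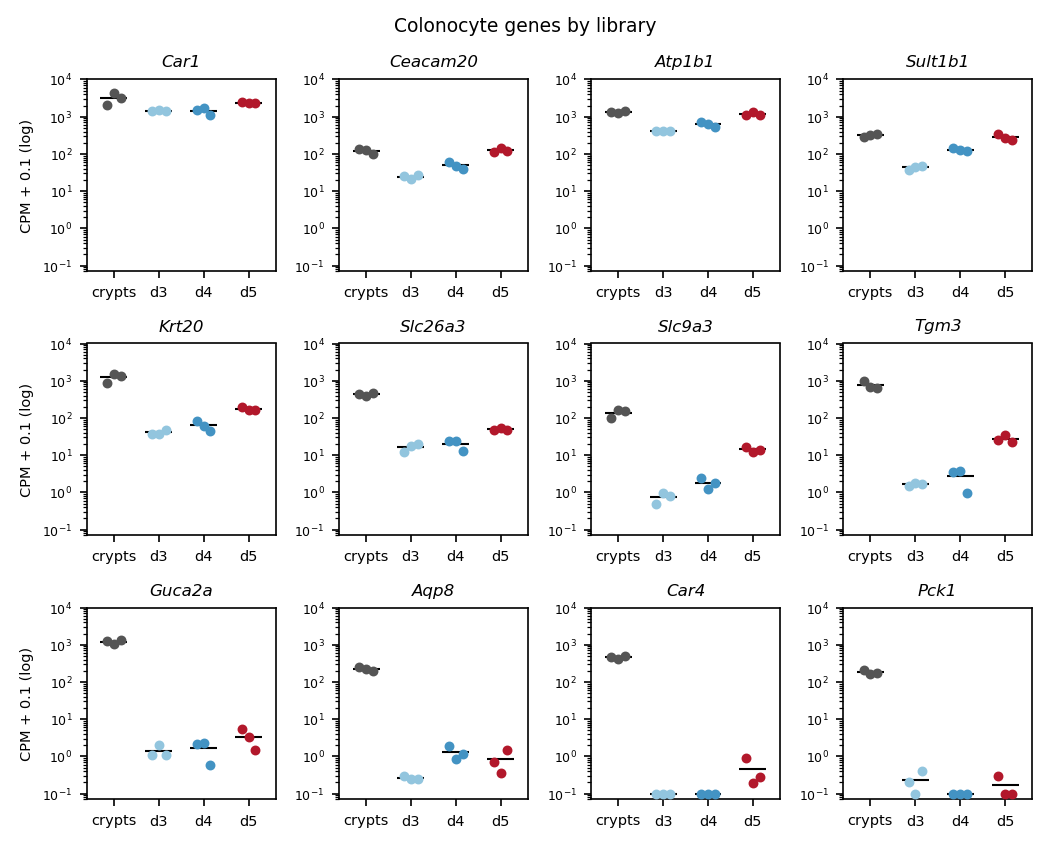
Levels of 12 colonocyte genes in the 12 libraries, as CPM + 0.1 on a log scale, by group, with dots for libraries and lines for group means. Top row, genes at or near the crypts level by day 5. Middle row, genes that rose after day 3 but stay lower, such as Slc9a3 (14.4 against 140 CPM). Bottom row, genes near absent on all days in culture, such as Pck1 (0.0672 against 182 CPM).

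Defence genes of the mucosa were lower for 20 of 24 and higher for 2, with a median of -6.03, or -5.11 with genes at 0 set to their bound. Reg3g, a bactericidal lectin, was at 49.7, 306 and 18.3 CPM in crypts and had no count at day 5 (at least 859.7-fold lower). Retnlb, a goblet cell antibacterial protein, was at 918, 255 and 192 CPM and also had none (at least 2662-fold lower). Ang4, an antimicrobial ribonuclease, was at 1807, 134 and 461 CPM in crypts and 0.403, 0.179 and 0 at day 5, and Mptx1, a mucosal pentraxin, at 7094, 737 and 3466 and 1.61, 0 and 0. Crypts libraries themselves spread by more than 4-fold for each of these genes, with the highest value in replicate 2 for Reg3g and in replicate 1 for the others. Pglyrp1, a peptidoglycan-binding protein, was higher (254, 245 and 276 against 109, 92.8 and 79.3 CPM, 1.47 ± 0.13), as was the calprotectin subunit S100a8, which had 9.07, 3.59 and 7.28 CPM and no count in crypts (at least 45.9-fold). Among the largest decreases outside the lists were Nov, a matricellular protein, Spink3, a trypsin inhibitor, Hpd, of tyrosine breakdown, Galnt5, which starts O-linked glycans, and the signalling regulators Rgs17 and Arhgap20. None had a day 5 count, and the bounds ran from 384-fold for Arhgap20 to 1489-fold for Nov.

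The largest increases were in genes of epithelial repair, of the YAP pathway and of matrix. Of 47 repair and fetal-like genes, 42 were higher and 2 lower, with a median of 3.04, and summed to 17148, 15954 and 17766 CPM at day 5 against 3642, 4255 and 3884 in crypts. The 2 lower genes were Cd24a (-0.87 ± 0.12), a surface antigen of crypt base cells, and the gap junction gene Gja1 (-0.80 ± 0.30), which was not called without crypts replicate 2 or day 5 replicate 1 or 2 (-0.72 to -0.65). Of 23 YAP and TEAD target genes, 17 were higher and 1 lower, with a median of 1.99, the lower one being Sdpr, a caveola protein gene with no count at day 5 (at least 10.4-fold). Among the integrins and basement membrane genes, 28 of 33 were higher and 2 lower, with a median of 1.55, and the lower ones were perlecan, Hspg2 (-0.93 ± 0.23), and the collagen receptor subunit Itga1 (-2.26 ± 0.40). Against day 3, 22 repair genes were lower at day 5 and 1 higher, Vnn1 (10.5% of all genes tested were called lower in that comparison). The list median was 3.47 above crypts at day 3 and 3.26 at day 4.

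Ctgf, a matricellular YAP target, had 368, 415 and 508 CPM at day 5 and no count in crypts (at least 3394-fold higher). It was lower than at day 3, where its mean was 949 CPM (-1.14 ± 0.13, edgeR adjusted p = 1.17e-05). Ankrd1, another YAP target, had 33.9, 21.1 and 28.1 CPM and no count in crypts (at least 204-fold), and F3, which encodes tissue factor, was at 1134, 982 and 1042 against 26.4, 17 and 18.3 CPM (5.71 ± 0.13). Clu, clusterin, a marker of revival stem cells, was at 1175, 1165 and 1338 CPM against 4.01, 3 and 3.7 in crypts (8.43 ± 0.17, edgeR adjusted p = 7.32e-17). Ly6a, which encodes Sca-1, was at 1597, 1262 and 1375 against 82.3, 197 and 57.6 CPM (3.65 ± 0.29), and Msln, mesothelin, at 589.8, 584 and 679 against 1.4, 1.04 and 0.18 (9.71 ± 0.22). Day 5 and crypts libraries did not overlap for any of these genes, as was so at 59.1% of all genes tested. Ctgf and Ankrd1 were named on that condition.

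Col4a1 and Col4a2, the collagen IV chains of basement membrane, were at 388, 374 and 401 and at 321, 354 and 390.3 CPM against 0.601, 4.96 and 0.0902 and 1, 2.61 and 1.17 (7.74 ± 0.37 and 7.78 ± 0.18). Lama5, a laminin chain, was at 545, 595 and 704 against 9.41, 10.6 and 9.83 CPM (5.94 ± 0.13), and Col18a1 at 79 ± 3.22 against 1.12 ± 0.98 (6.42 ± 0.34). By contrast Col3a1, an interstitial collagen of fibroblasts, had 1 count at day 5 and 11, 34.8 and 2.89 CPM in crypts. Dst, the hemidesmosome linker, was the list member nearest to crypts (771 ± 68.6 against 734 ± 33.1 CPM, 0.07 ± 0.08).

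Further genes among the largest increases had no crypts count. The actin regulator Enah (30.0, 17.4 and 19.4 CPM, at least 165-fold), the chaperone Cryab (113, 58.1 and 72.5, at least 589-fold), the serpin Serpinb11 (118, 73.5 and 78.7, at least 673-fold) and the cytokine receptor chain gene Il5ra (112, 85.2 and 78.3, at least 708-fold) were detected in every day 5 library. Ndufa4l2, a mitochondrial protein induced in low oxygen, had 19.6, 16.4 and 21.5 CPM (at least 146-fold). The autophagy gene Atg9b was at 233, 233 and 238 CPM against 1 count in crypts, a ratio of 5568 (95% interval 999 to 219950.0). In all, 179 genes called higher had no count in the 3 crypts libraries, and 198 called lower had none in the 3 day 5 libraries.

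Squamous genes were mostly below the level that can be tested. Of 34 cornified envelope and squamous genes only 13 were abundant enough, with 6 higher and 2 lower. Their median was 3.06, and 0.20 over the 7 with more than 3 counts in both groups. Their summed level was 506 ± 63.3 CPM at day 5 against 910 ± 173 in crypts (SD, n = 3), where Tgm3, listed here and with colonocytes, held 27.2 and 762. The other lower gene was Pou2f3, also a tuft cell factor, with no count at day 5 (at least 11.1-fold). Ivl, involucrin, was at 11.7, 8.43 and 8.49 CPM and Lor, loricrin, at 8.06, 16.1 and 12.8, both with no count in crypts (at least 72.7-fold and 106-fold higher). Krt4, a keratin of stratified epithelium, was at 8.26, 15.1 and 20.5 CPM with no count in crypts, and had been at 278 ± 35 at day 3 (-4.23 ± 0.24 for day 5 against day 3, edgeR adjusted p = 7.87e-09). Tgm1, the keratinocyte transglutaminase, was at 1.61, 2.51 and 2.6 CPM after 18 ± 1.12 at day 3. Desmosome and keratin genes were higher for 17 of 24, with Krt20 as the lower one. Among the higher was Ppl, periplakin (447, 399 and 339.5 against 29.2, 44.8 and 58.7 CPM, 3.13 ± 0.17).

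Junction and brush border genes moved less, and some core epithelial genes stood near the crypts level. Of 41 tight and adherens junction genes, 24 were higher and 6 lower, with a median of 0.53, and 9 lay within 1.5-fold. Of 25 brush border genes, 12 were higher and 10 lower, with a median of 0.16 (-0.04 with library totals). Cdh1, E-cadherin, was at 1336, 1594 and 1446 CPM in crypts and 1679, 1560.0 and 1622 at day 5 (0.15 ± 0.08, edgeR adjusted p = 0.105). Epcam was at 1562, 1940.1 and 1620.5 and 2125, 2008 and 1861 CPM (0.23 ± 0.10, edgeR adjusted p = 0.0569), and Krt8, the simple epithelial keratin, at 3082, 3256 and 3179 and 3078, 2808 and 3194 (-0.07 ± 0.07). Cldn3, a sealing claudin, stood at 309.6, 335 and 317 and 343, 304 and 344 CPM (0.04 ± 0.09), and the 95% intervals of all these genes lay within 1.5-fold of crypts. Without crypts replicate 2, Cdh1 (0.22) and Epcam (0.33) were called higher, as was Epcam without day 5 replicate 3 (0.28) and with no filter (0.23). With library totals Krt8 was called lower (-0.27), and Cdh1 and Cldn3 lay just below crypts without a call. Krt18, the partner keratin of Krt8, was not at the crypts level but higher, at 1735, 1696 and 2015 against 539.7, 500.1 and 515 CPM (1.81 ± 0.08).

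Other junction genes had changed strongly. Tjp1, the ZO-1 scaffold, was at 805, 758 and 724 against 256, 268 and 232 CPM (1.60 ± 0.09, edgeR adjusted p = 1.82e-11). Ocln, occludin, was higher by a small amount (206, 209 and 179 against 172, 152 and 152 CPM, 0.32 ± 0.09, edgeR adjusted p = 0.00699), but not with library totals (0.12). The pore-forming claudins were low: Cldn2 was at 95.5, 103 and 123 CPM in crypts and 0.403, 0.448 and 0.867 at day 5 (-7.57 ± 0.44), and Cldn15 at 109.8, 99 and 122 and 1.61, 3.41 and 3.99 (-5.15 ± 0.31). Vil1, villin of the microvillus core, was at 522, 708 and 568 and 419, 495 and 492 CPM (-0.36 ± 0.10, edgeR adjusted p = 0.00694), and not called without crypts replicate 2 (-0.22). Myo5b, the motor of apical recycling, was at 336 ± 28.9 and 366 ± 19.2 (0.12 ± 0.09). Baiap2l2 and Tmigd1, which also serve the brush border, were much lower (-4.73 ± 0.29 and -3.55 ± 0.24).

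Transcription factors of intestinal identity were lower for 18 of 34 and higher for 7 (28.9% and 28.4% over all genes tested), with a median of -0.76. Hnf4a, the factor of enterocyte genes, was at 619, 673 and 651 CPM in crypts and 568, 525 and 552 at day 5 (-0.24 ± 0.09, edgeR adjusted p = 0.0239, not called without crypts replicate 2 or day 5 replicate 2, -0.21 each). Its 95% interval lay within 1.5-fold of crypts. Cdx2, the intestinal homeobox factor, was at 109, 144 and 137 and 61.7, 95.2 and 104 CPM (-0.58 ± 0.15), with its lowest value in day 5 replicate 1. Nr5a2, a nuclear receptor of crypt cells, was at 108, 102 and 114 and 0, 2.24 and 2.95 CPM (-5.84 ± 0.44), and Gata5 had no count at day 5 (at least 20.3-fold lower). Onecut2 had no count in crypts and 9.07, 1.17 and 0.867 CPM at day 5, most of it in replicate 1.

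Genes of glycolysis were higher and genes of mitochondrial respiration lower. Of 27 glycolysis genes, 20 were higher and 2 lower, with a median of 1.69, and of 26 hypoxia genes 19 were higher and 4 lower, with a median of 2.28. Respiratory chain and ATP synthase genes were lower for 49 of 52 and higher for 0, with a median of -0.89, and their summed level was 12150, 12663 and 12743 CPM in crypts against 6833, 6806 and 6915 at day 5. Fatty acid oxidation and ketogenesis genes were lower for 28 of 39, with a median of -0.83. The 4 higher ones were the receptor Pparg (0.91 ± 0.10), the acyl-CoA and acetyl-CoA synthetases Acsl5 (1.38 ± 0.09) and Acss2 (0.85 ± 0.11) and the lipid droplet gene Plin2 (0.62 ± 0.13). At day 3 the medians of these 4 lists were 1.68, 2.28, -0.93 and -1.13 in the same order.

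Pfkfb3, which drives glycolytic flux, was at 315, 295 and 322 CPM against 6.61, 5.87 and 3.52 in crypts (5.94 ± 0.16, edgeR adjusted p = 2.36e-15). Slc16a3, the lactate exporter, was at 121, 128 and 151 against 1.8, 1.3 and 2.08 CPM (6.23 ± 0.17), and Egln3, the oxygen-sensing hydroxylase induced by hypoxia-inducible factor, at 979.7, 885 and 922 against 20.2, 27.8 and 25.7 (5.22 ± 0.13). Bnip3, the mitophagy receptor, was at 397, 336 and 337 against 11.2, 4.18 and 5.05 CPM (5.83 ± 0.20). Its promoter is shown because hypoxia-inducible factor binds sites with the core ACGTG, marked in capitals on both strands in the 250 bases before the start, from the same source.
Bnip3, chr7:138909507-138909756, minus strand: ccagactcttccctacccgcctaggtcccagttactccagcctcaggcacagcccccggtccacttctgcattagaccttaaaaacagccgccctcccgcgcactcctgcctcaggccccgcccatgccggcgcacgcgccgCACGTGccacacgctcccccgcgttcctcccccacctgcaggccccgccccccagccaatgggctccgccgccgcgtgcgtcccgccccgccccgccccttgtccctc

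The marked stretch of Bnip3 begins 108 bases before the start and reads as ACGTG on both strands, overlapping by 4 bases. ACGTG was present in 12 of 19 hypoxia promoters and 14 of 27 glycolysis promoters, and in 25.3% of the 9528 tested genes with an entry. Hypoxia genes were not all higher. The factors Hif1a (-0.76 ± 0.12) and Epas1 (-2.01 ± 0.13) themselves were lower, as was the carbonic anhydrase Car12 (-3.25 ± 0.31). Arnt2, a partner of hypoxia-inducible factors, had no count at day 5 (at least 35.9-fold lower), and Higd1a lay at its crypts level (0.13 ± 0.13). Pdk4, which spares glucose in fasting, was lower (17.3 ± 14.4 against 1.18 ± 0.925 CPM, -4.02 ± 0.75), as was Pdk3 (-2.65 ± 0.36), while their relative Pdk2 lay at the crypts level (0.01 ± 0.19) after 14.6 CPM at day 3.

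Cox5b and Cox4i1, subunits of cytochrome oxidase, were at 198, 166 and 183 and 369, 393 and 416 CPM in crypts and 52.4, 50.5 and 49.9 and 133, 135 and 139 at day 5 (-1.84 ± 0.11 and -1.53 ± 0.09). Ppara, the receptor that turns on fat burning, was at 17.8, 43.3 and 43.9 and 0, 0.628 and 1.21 CPM (-5.76 ± 0.56). Cholesterol synthesis genes were higher for 25 of 30, with a median of 1.40, among them the sterol cyclase Lss (224, 166 and 192 against 24, 30.9 and 43.7 CPM, 2.52 ± 0.16) and the sterol sensor partner Insig1 (313, 248 and 261 against 51.7, 53.8 and 42, 2.49 ± 0.13). The 3 lower ones were Ebp (-1.13 ± 0.13), Dhcr7 (-0.57 ± 0.15) and Acaca (-0.74 ± 0.29), of which the last makes fatty acids and was not called without crypts replicate 1 or 3 or day 5 replicate 1 (-0.74 to -0.38). Xenobiotic metabolism genes were lower for 34 of 50 and higher for 10. Against day 3, 25 of the 50 were higher at day 5 (9.9% of all genes tested), with Gstm1 and Aldh1a1 lower. Sult1a1, a phenol sulfotransferase, was at 369, 323 and 429 CPM in crypts and 1.61, 0.986 and 1.56 at day 5 (-8.16 ± 0.24), whereas Cyp2b10, a drug-induced cytochrome, had 4.03, 9.24 and 9.36 CPM and no count in crypts (at least 64-fold higher).

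ATF4 amino acid stress genes were nearer to crypts at day 5 than at day 3. The median of ribosomal protein genes passed from above crypts to slightly below. ATF4 amino acid stress genes were higher for 21 of 28, with a median of 1.01, after 2.16 at day 3. Of the 28, 21 were lower at day 5 than at day 3 (10.5% of all genes tested). The 2 below crypts were Aldh18a1, of proline synthesis (-0.91 ± 0.17), and Cth, of cysteine synthesis (-1.09 ± 0.16). Slc7a11, the cystine importer, was at 56.4, 53.5 and 62.2 CPM against 5.61, 3.13 and 5.77 in crypts (3.56 ± 0.19), down from 199 ± 37.3 at day 3. Slc7a1, an arginine importer, had returned to the crypts level (64.1, 45.2 and 52.2 against 41.3, 58.7 and 60.7 CPM, -0.02 ± 0.15) from 143 at day 3. Trib3 and Chac1, both targets of ATF4, were still higher, Trib3 by a ratio of 70.5 (95% interval 23.8 to 345) and Chac1 by 3.63 ± 0.53 on the log2 scale.

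Of 53 cytosolic ribosomal protein genes 20 were lower, 3 higher and 30 not called, with a median of -0.23, and 22 lay within 1.5-fold. Over all genes tested 28.9% were called lower and 28.4% higher. None of the 53 passed 2-fold, and 12 were lower without day 5 replicate 2. Rpl7, Rpl13a and Rpl22 were higher, by 0.27 to 0.37 on the log2 scale, but not with library totals (0.06 to 0.17), and Rpl22 not without crypts replicate 2 (0.20). At day 3 the list median had been 0.48 above crypts. Of the 53, 38 were lower at day 5 than at day 3 (10.5% of all genes tested) with 0 higher. Rpl14 of the large subunit was at 169, 144 and 166 CPM in crypts, 204 ± 33.9 at day 3 and 128, 90.7 and 95.3 at day 5 (-0.62 ± 0.13, edgeR adjusted p = 0.00065). Rpl4 lay within 1.5-fold (-0.01 ± 0.09), and with library totals it was called lower (-0.22). Endoplasmic reticulum folding genes were lower for 14 of 34, with a median of -0.29 (-0.11 at day 3) and the chaperone Hspa5 higher (0.36 ± 0.10, not called with library totals, 0.16). The higher genes numbered 2 without crypts replicate 1 or 2 and 4 without day 5 replicate 3. The largest decrease was in Ern2, the stress sensor of mucus cells (248, 191 and 249 against 0, 0.986 and 1.39 CPM, -8.03 ± 0.37), and the chaperones Canx and Calr lay within 1.5-fold (-0.01 ± 0.08 and 0.11 ± 0.08), with Canx called lower with library totals (-0.22). Of 31 proteasome genes, 8 were higher and 5 lower (Psma4, Psma7, Psmc3, Psmc5 and Psmd6, of which Psmc5 was not called without day 5 replicate 1, -0.42, nor Psmd6 without crypts replicate 3, -0.40, or day 5 replicate 2, -0.41), with a median of 0.04 (-0.17 with library totals).

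Immediate early and stress genes were higher for 19 of 30, with a median of 0.97 (0.80 at day 3), among them the survival gene Ier3 (84.3, 105 and 118 against 1.8, 1.96 and 2.62 CPM, 5.53 ± 0.19) and the phosphatase Dusp1 (143, 121 and 131 against 11.6, 11.1 and 9.47, 3.63 ± 0.14), while Jun lay at the crypts level (-0.02 ± 0.11). Fos (-0.52 ± 0.11), Fosb (-2.78 ± 0.78) and Klf4, also a goblet cell and colonocyte factor (-1.90 ± 0.11), were lower. NRF2 antioxidant genes were higher for 15 of 25, with a median of 0.40 (0.35 at day 3) and the largest change in the heme oxygenase Hmox1 (36.1, 47.6 and 49.9 against 0.2, 1.96 and 1.62 CPM, 4.97 ± 0.28). Gpx2 (-1.11 ± 0.16), Fth1 (-0.76 ± 0.09), Sod2 (-0.58 ± 0.12) and Txn1 (-0.48 ± 0.10) were the 4 lower ones. Cytokine and chemokine genes were higher for 11 of 22, and Ccl28 (-1.18 ± 0.14), Hpgd (-0.53 ± 0.12), Nfkbiz (-0.51 ± 0.12) and Ptgs1, by a ratio of 18.9 (95% interval 4.91 to 161), were lower. Ptgs2, the inducible cyclooxygenase, was at 121, 114 and 135 CPM at day 5 on 2 crypts counts, a ratio of 1434 (95% interval 396 to 11844), and the chemokine Cxcl16 at 209, 194 and 223 against 4.61, 7.96 and 4.15 CPM (5.23 ± 0.16). Malat1, the nuclear RNA with the most counts at day 5, was at 134530.0, 120310.0 and 92845 against 21202, 18767 and 20325 CPM (2.53 ± 0.11), and the paraspeckle RNA Neat1 was also higher (0.67 ± 0.08). Abundant nuclear RNAs did not rise as a class: of 7 tested 2 were higher, 2 lower and 3 not called. Both lower ones passed 2-fold. Over all genes tested 28.4% were called higher and 28.9% lower. Reads outside genes were 47.3 ± 1.69% of all reads counted in crypts and 41.5 ± 1.14% at day 5 (SD, n = 3), and their part in the Malat1 value was not tested.

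Interferon and MHC genes depended on 1 crypts library. Of 40 genes 21 were lower and 2, Oasl1 (1.70 ± 0.47) and H2-K1 (0.44 ± 0.17), higher. H2-K1 was not called without crypts replicate 1 or 3 or day 5 replicate 1 or 3 (0.29 to 0.44). Nor was it called with DESeq2 (0.41), library totals (0.24) or the 6 libraries alone (0.44). Without crypts replicate 2 the count was 11 lower and 10 higher. That library held 4674 CPM of this list in sum, against 1811 and 1865 in replicates 1 and 3 and 2338, 1841 and 2049 at day 5. Ifit1, an interferon-induced antiviral gene, was at 29.6, 278 and 51.2 CPM in crypts and 74.2, 19.4 and 31.5 at day 5 (-1.56 ± 0.59, edgeR adjusted p = 0.0313), with overlapping groups. Without crypts replicate 2 its change was 0.0041, and without day 5 replicate 2 or 3 it was -1.19 or -1.41 and not called. Ifit1 was also not called with DESeq2 (-1.55), the 6 libraries alone (-1.56) or the replicate block (-1.06). Psmb8, an immunoproteasome subunit, was lower in each day 5 library (26.8, 80.6 and 18.3 against 0.605, 0.448 and 1.39 CPM, -5.77 ± 0.65), and Cd74, the invariant chain of antigen-presenting cells, had no count at day 5 (at least 91.9-fold lower). H2-D1, a class I gene, lay within 1.5-fold (-0.06 ± 0.17), and without crypts replicate 2 it was called higher (0.32, edgeR adjusted p = 0.0114). Over the days the list median rose from -3.11 at day 3 to -1.22 at day 5. Of the 40 genes 17 were higher at day 5 than at day 3 (9.9% of all genes tested) and 1, Isg20, lower.

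Transcripts of other cell types were found in crypts, and many were lower or absent at day 5. Of 34 immune cell genes 14 were tested, with 10 lower and 2 higher, the macrophage and lysosome gene Cd68 (22.1 ± 2.47 against 1.35 ± 0.744 CPM, 3.95 ± 0.29) and Csf1r (2.40 ± 0.91), the latter not called without crypts replicate 1 or 3 or day 5 replicate 1 or 2 (2.14 to 2.33). The list summed to 181 to 194 CPM in crypts and 25.5 to 28.8 at day 5. Ptprc, the leukocyte antigen CD45, was at 21.6, 19.7 and 9.56 CPM in crypts and 0.605, 0 and 0.173 at day 5 (-6.33 ± 0.90). Kit, a mast cell receptor that is also a gene of secretory cells in the colonic crypt, made up much of the sum in crypts, with 141, 92.3 and 142 CPM against 0.605, 0 and 0. The T cell genes Gzma, Lck and Cd3g had no count at day 5 and up to 7.44, 6.66 and 4.83 CPM in crypts. Fibroblast and smooth muscle genes were lower for 6 of 8 tested and higher for 0, and summed to 111, 217 and 115 CPM in crypts against 48.8, 41.3 and 44.7. Vim, vimentin, was at 12.4, 13.3 and 6.14 CPM in crypts with no count at day 5 (at least 71.3-fold lower), and Dcn, decorin, likewise (at least 39-fold). Of 6 tested endothelial, glial, neuronal and red cell genes 2 were lower (28.9% of all genes tested were called lower). These were Pecam1 and Esam, both of endothelium. Esam was not called without crypts replicate 2 or 3 or any 1 of the day 5 replicates. The part of these cells in the changes above was not tested. The leukocyte and fibroblast markers Ptprc, Cd3g, Dcn and Col3a1 were at or near 0 at day 5. Not every marker of these cells was, and the fibroblast list still summed to 41.3 to 48.8 CPM there.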

How the data were processed

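Total RNA, prepared with the RNAqueous Micro kit per the labels' protocols, was sequenced from 3 libraries per group. The values are counts deposited by the authors: whole reads per gene symbol with no normalization. Alignment and counting tools named in the submitters' processing notes are TopHat2 and HTSeq, beside CASAVA 1.9, and the builds mm9 and mm10 appear there without a role. Strand setting and annotation are not stated there, so overlapping and antisense partners cannot be separated, and near-identical copies are uncertain. The 5 summary lines of each file name no gene and were left out. In the 6 libraries compared they held reads in no gene (40.8 to 49.0% of all reads counted), reads not uniquely aligned (14.2 to 19.2%) and ambiguous reads (0.154 to 0.207%).

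Gene totals ran from 4518314 to 11716792 counts in these libraries, where 3 counts equal 0.256 to 0.664 CPM. Genes were kept by filterByExpr (minimum count 10), scaled by TMM and fitted in edgeR 4.0.16 (R 4.3.3, quasi-likelihood) over all 12 libraries with the group as the term. Benjamini-Hochberg adjustment ran over 12863 genes. A change beyond 2-fold was tested with glmTreat. A gene counted as within 1.5-fold where its 95% interval was. The scripts were tested on simulated data. The members and the 37 gene lists (1210 distinct genes) were chosen with earlier results of these data known.

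Genes were named by a rule. It took the 12 largest called changes each way among genes with a mean of at least 8 CPM whose groups did not overlap. From every list it took at most 4 called genes by size of change, with a mean of at least 1 CPM, and the gene of at least 20 CPM nearest to no change. It also took the 10 most abundant genes within 1.5-fold, the 8 largest changes each way between day 5 and day 3, and 29 genes whatever their value. The text names a subset, some genes are not reported here, and it says where it goes outside the rule. Alternatives were library totals, RLE factors, no filter, a minimum count of 50, DESeq2 1.42.0, the 6 libraries alone, a replicate block, an adjusted p of 0.01 and each replicate left out. List counts without each replicate were added after seeing the data. Promoters came from RefSeq on GRCm38.p6, matched by symbol for 9528 genes tested.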

Additional observations from a re-analysis of the deposited data

Results flagged for a closer look

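Among 44 genes whose change against crypts could be set beside that at day 3, 19 differed between the days by at least 4-fold and by edgeR's quasi-likelihood test of day 5 against day 3 (adjusted p under 0.05), with 9 higher and 10 lower at day 5. Both changes share the crypts libraries, so the test of the difference is the direct one between the days. Most of these genes were chosen for a large change between those days or for their role, so their sizes are a description. Values are log2 changes of day 5 against day 3.

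Mitotic genes made up most of the lower ones. Cyclin B1 (Ccnb1) changed by -5.51, the anaphase activator Cdc20 by -4.63, the spindle motor Kif11 by -4.38, Kif14 by -4.42, Nusap1 by -4.39, Hmmr by -4.52 and Iqgap3 by -5.21. The proliferation marker Mki67 changed by -3.5 and the topoisomerase gene Top2a by -3.79. Sval1, at -6.28, had no count in any day 5 library, so its value depends on the prior count and is no bound.

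The higher ones held colonocyte genes that were far below crypts at day 3. The sodium/hydrogen exchanger Slc9a3 changed by 4.38, the keratin Krt20 by 2.08 and the transglutaminase Tgm3 by 4.14. Slc37a2 changed by 5.51, Glod5 by 4.45, the acute phase gene Saa1 by 7.16 and the interferon-induced Ifit1 by 4.43. The carbonic anhydrase Car4 and the carboxylesterase Ces1g both stood at 4.45 with no count in any day 3 library, so these values too depend on the prior count.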

How the results depend on the processing

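The count of genes called between day 5 and crypts, 7371, lay within 1.5 times of that value under every alternative run. It was 7512 with DESeq2, 7433 with library totals, 7394 with RLE factors, 7666 with no filter, 6596 at a minimum count of 50, 6079 in the 6 libraries alone, 5939 at an adjusted p of 0.01, and 6891 to 7358 without 1 replicate. With the replicate block 7228 genes were called against crypts, 2463 between day 5 and day 3 and 900 between day 5 and day 4. Whether the replicate numbers pair the samples is not known. Deviations of day 5 and crypts libraries of the same number correlated at -0.017, -0.007 and -0.006. Those of different numbers correlated at -0.014 to 0.020, equally near 0, so these values cannot decide it. The count within 1.5-fold of crypts was 3702 with no filter, where 18195 genes were tested. Without 1 replicate, 2699 to 2947 genes passed 2-fold and 1807 to 2138 stood within 1.5-fold. Between day 5 and day 3 the calls numbered 1574 at an adjusted p of 0.01 and 1811 to 2442 without 1 replicate. Between day 5 and day 4 they numbered 492 at an adjusted p of 0.01 and 536 to 919 without 1 replicate, with 536 lacking day 4 replicate 2, 553 lacking day 4 replicate 3 and 585 lacking day 5 replicate 2. The share of crypts counts in lower genes was 21.98% at 2-fold, and 13.3 to 14.6% without 1 replicate. Some list medians near 0 changed sign, on the log2 scale. Stem cell and Wnt genes were at 0.0040 at a minimum count of 50. Brush border genes were at -0.042 and proteasome genes at -0.17 with library totals, and proteasome genes at -0.010 to 0.076 without 1 replicate. Abundant nuclear RNAs were at -0.37 in the 6 libraries alone and -0.38 at a minimum count of 50. Of 233 genes named here, 20 changed sign under an alternative, and 19 of them had not been called. With library totals the log2 changes were Calr -0.094, Cdh1 -0.052, Ceacam20 -0.13, Cldn3 -0.16, Dst -0.14, Higd1a -0.071, Myo5b -0.084, Pdk2 -0.20, Rbl2 -0.19, Slc12a2 -0.19, Mep1b -0.033, Maoa -0.061 and Cd38 -0.20. Cd38 was at -0.026 with DESeq2, -0.026 with RLE factors and -0.016 at a minimum count of 50. Pdk2 was at -0.027 with DESeq2, -0.027 with RLE factors and -0.015 at a minimum count of 50. Rbl2 was at -0.014 with DESeq2, -0.013 with RLE factors and -0.0021 at a minimum count of 50. Slc12a2 was at -0.023 with DESeq2, -0.023 with RLE factors and -0.012 at a minimum count of 50. The ranges without 1 replicate were Bub3 -0.25 to 0.034, Canx -0.075 to 0.047, Ceacam20 -0.047 to 0.15, Jun -0.092 to 0.035, Pdk2 -0.10 to 0.11, Rbl2 -0.11 to 0.13, Rpl4 -0.070 to 0.077, Slc12a2 -0.023 to 0.051, Slc7a1 -0.16 to 0.11 and Cd38 -0.13 to 0.14. H2-D1 ranged from -0.24 to 0.32 and Ifit1, the called gene of the 20, from -2.26 to 0.0041; both upper values were without crypts replicate 2. A call was lost under at least 1 alternative for 24 named genes and gained for 8, and the cause was not tested. Beyond the settings named with each gene, calls of Acaca, Cdkn2d, Gja1 and Rpl22 were lost in the 6 libraries alone. Those of Cdkn2d and Gja1 were also lost with no filter, and those of Cdkn2d and Esam with the replicate block. DESeq2 did not call Gzma, Cd3g or Dcn (adjusted p = 0.138, 0.155 and 0.102), whose calls by edgeR rest on groups at 0 counts. The 2-fold and 1.5-fold counts were not run with DESeq2. A group at 0 counts limits a fold to a bound.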

Other observations

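The genes in this section were chosen after their values were seen, although Slc40a1 and Mep1b are also in the absorptive colonocyte list and Fth1 and Ftl1 in the NRF2 list. Several iron transport genes were higher at day 5 than in crypts. Slc11a2, the transporter that carries ferrous iron into the cell, averaged 22.6 CPM in the 3 crypts libraries, and in the 3 libraries of each day it averaged 103 (day 3), 319 (day 4) and 1137 (day 5). Its log2 change from crypts to day 5 was 5.67 ± 0.24 (SE, edgeR adjusted p = 7.5e-13). Slc40a1, the iron exporter ferroportin, changed by 2.03 ± 0.19 (edgeR adjusted p = 4.3e-08) and stood at 521 CPM at day 5. Heph, which oxidises exported iron, changed by 1.22 ± 0.10 (edgeR adjusted p = 4.3e-09). The iron reductase Cybrd1 changed by 3.54 ± 0.77 from a mean of 0.3 CPM in crypts (edgeR adjusted p = 0.00068). The ferritin chains moved in opposite directions, with the heavy chain Fth1 lower by edgeR's test (-0.76 ± 0.09, adjusted p = 9.5e-07) and the light chain Ftl1 higher (0.96 ± 0.13, adjusted p = 3.6e-06). Tfrc, the transferrin receptor, stood at 266 CPM in crypts and 368 at day 5, and its call (0.46 ± 0.18, edgeR adjusted p = 0.04) was lost under most alternatives.

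A set of 31 genes was at least 2-fold below crypts at day 3, within 1.5-fold of crypts at day 5, and called between the days. The brush border protease meprin beta (Mep1b) averaged 117 CPM in crypts, 51.8 on day 3 and 133 on day 5. Maoa, a monoamine oxidase, averaged 708, 327 and 784 CPM, and Cd38, a NAD-consuming ectoenzyme, averaged 141, 58.2 and 142. A further 75 genes were called on opposite sides of crypts on the third and the fifth day. Of these, 27 were higher than crypts at day 5 and 48 were lower, among them the tryptophan tRNA synthetase Wars (113, 174 and 73.8 CPM in the same order).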
